A study of Drosophila melanogaster with 6 samples.

Results

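The transcripts described here are those of 10 genes of mitosis in Drosophila melanogaster: polo, aurA, aurB, BubR1, Bub1, Bub3, Mps1, cid, Klp61F and pav. They were taken by exact symbol from a table of RNA-seq counts of 17494 genes, and all 10 were found in it. Adult ventral nerve cords (VNCs) were the source of the 6 libraries, 2 for each of 3 conditions. In poxn > pros RNAi, Syp RNAi animals, called double knockdown tumors here, RNA interference against prospero (pros) and Syncrip (Syp) was driven by poxn-GAL4. In poxn > pros RNAi animals, called pros RNAi tumors, only pros was targeted, and the third condition was wild type.

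Each VNC was dissected whole, so that the tumor libraries also hold the neurons, glia and other cells of the cord on which the tumors grow. The driver is active in a few neuroblasts (NBs) of the VNC, and the tumors arise there in the larva because NB progeny that lose the transcription factor Prospero return to an NB state. Syp, an RNA-binding protein, is a late temporal factor of NBs, and its removal in the double knockdown asks whether the tumor cells are held in an earlier state. UAS-dicer2, which strengthens RNA interference, is part of the driver system of the tumors. By the labels the adults of all 6 libraries were 6 days old, while the methods of the study name an older age for the tumors. For each tumor condition the methods describe pooled VNCs of both sexes from several crosses. They call the 2 libraries of such a condition technical replicates, and whether these come from separate pools is not clear. The sex and pooling of the wild-type animals are not described. The p-values given here therefore measure the spread between these libraries and not between independent crosses.

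During mitosis, kinases switch on the machinery that builds the spindle, attaches chromosomes to it and splits the cell. Polo acts at centrosomes, kinetochores and the cleavage furrow. Aurora A (aurA) matures the centrosomes and, in dividing NBs, also takes part in setting up cell polarity. Aurora B (aurB) is the catalytic subunit of the chromosomal passenger complex, which corrects faulty attachments and guides cytokinesis. Mps1, Bub1, BubR1 and Bub3 belong to the spindle assembly checkpoint, which delays anaphase until all kinetochores are attached. The centromere itself is marked by Cid, the histone H3 variant known as CENP-A in mammals. The motor Klp61F, a kinesin-5, keeps the spindle poles apart, and Pavarotti (pav), a kinesin-6, bundles the central spindle together with its partner Tumbleweed (tum). Transcripts of many such genes are abundant in cycling cells and scarce in cells that have left the cell cycle, such as adult neurons.

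Library totals ranged from 86098417 to 128107088 counts. The lowest count of any of the 10 genes was 138. Levels are given as CPM, the counts of a gene relative to the library total after TMM scaling over the 6 libraries, and between genes as CPM per kb of exon. Syp was at 416 and 465 CPM in the double knockdown tumors, against 2047 and 1765 CPM in the pros RNAi tumors. The other targeted gene, pros, which wild-type VNCs also expressed, was at 1030 and 1269 CPM in the double knockdown tumors and at 729 and 810 CPM in the pros RNAi tumors, all below the 2527 and 2338 CPM of wild type. The NB marker deadpan (dpn) was at 174 and 165 CPM in the double knockdown tumors and at 201 and 200.5 CPM in the pros RNAi tumors, against at most 0.743 CPM in wild-type VNCs.

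All 10 mitotic genes were higher in both kinds of tumors than in wild-type VNCs. Among all genes tested, 39.8% were called higher in the double knockdown tumors and 41.9% in the pros RNAi tumors. The CPM of the 10 genes summed to 773 and 769 in the double knockdown tumors and to 989 and 952 in the pros RNAi tumors, against 68.7 and 60.2 in wild type. Between the tumors, 5 of the 10 genes (polo, pav, Klp61F, Bub1 and aurA) were lower in the double knockdown tumors than in the pros RNAi tumors, by 18.3% to 36.7%, and 0 were higher. The same test called 12.4% of all genes lower and 10.9% higher. With library totals or NB genes as the scaling, polo alone of the 10 genes was called lower. The plot of levels by library shows every value.

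**Figure D1:**
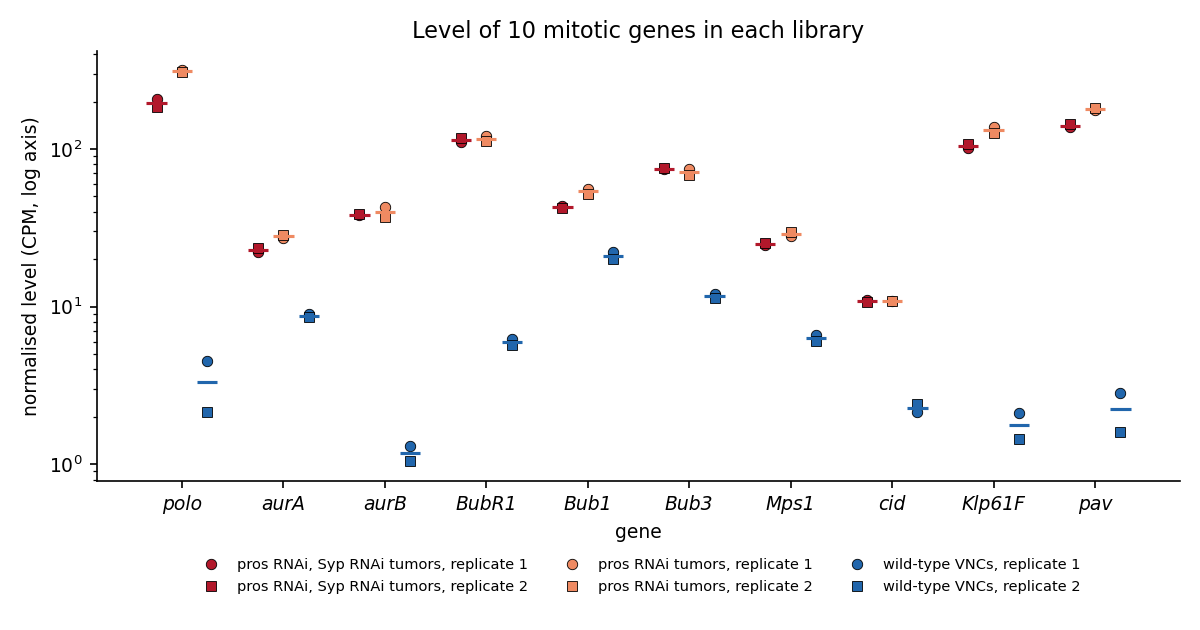
Level of each of the 10 genes (horizontal axis) in CPM on a log axis (vertical), with double knockdown tumors, pros RNAi tumors and wild-type VNCs from left to right within a gene. Circles are replicate 1, squares replicate 2 and lines the mean. All wild-type values lie below all tumor values of the same gene, and the wild-type points of polo lie farthest apart, at 4.52 and 2.15 CPM.

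The first comparison sets the tumors against VNCs that, by the NB markers, hold almost no NBs. By edgeR's quasi-likelihood test at an adjusted p under 0.05, 10 of the 10 genes were higher in the double knockdown tumors than in wild type and 0 were lower, where 39.8% of the 14289 genes tested were higher and 36.7% lower. In the pros RNAi tumors 10 of 10 were also higher, where 41.9% of the 14162 genes tested were higher and 40.7% lower. Both tumor libraries lay above both wild-type libraries for 10 of 10 genes in each comparison, beside 45.7% of all genes for the double knockdown tumors and 46.1% for the pros RNAi tumors. The 10 genes had a median log2 fold change of 3.47 in each comparison, while the median of all genes tested was 0.04 for the double knockdown tumors and 0.01 for the pros RNAi tumors. Both comparisons use the same wild-type libraries. The cell types of the cord differed as well. The 7 neuron markers summed to 1179 and 1686 CPM in the double knockdown tumors and to 738 and 876 CPM in the pros RNAi tumors, against 4615 and 4536 CPM in wild type. The 6 fat body markers summed to 122 and 76.1 CPM in the double knockdown tumors and to 1127 and 581 CPM in the pros RNAi tumors, against 4647 and 3786 CPM in wild type, and the 6 glia markers to 827 and 1021 CPM in the double knockdown tumors and to 604 and 633 CPM in the pros RNAi tumors, against 1641 and 1668 CPM in wild type. Not every marker followed its sum. In the double knockdown tumors loco, Eaat1, gcm, Fbp1 and Fbp2 were higher than wild type by edgeR's test (log2 fold changes 0.33, 0.54, 6.58, 5.73 and 4.58). The other glia and fat body markers were lower there. In the pros RNAi tumors loco (0.73) and gcm (3.94) were higher. In wild type gcm, Fbp1 and Fbp2 were at most 0.280 CPM. The 12 muscle markers summed to 1071 and 1820 CPM in the double knockdown tumors, against 891 and 1292 CPM in wild type. In the pros RNAi tumors they summed to 224 and 222 CPM, and all but TpnC41C were called lower. In the double knockdown tumors Mhc, Mlc2, up, wupA, Act88F and TpnC41C were higher and Act57B, sls and Mf lower. There bt, Prm and TpnC73F did not pass edgeR's test. The part of these cell types in the differences from wild type was not tested. In bulk RNA, more dividing cells and more RNA per dividing cell cannot be told apart.

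Among the kinases, polo had the highest levels in the tumors. It was at 209 and 185 CPM in the double knockdown tumors and at 316 and 307 CPM in the pros RNAi tumors, against 4.52 and 2.15 CPM in wild-type VNCs. The 3 conditions did not overlap. Against wild type its log2 fold change was 5.89 ± 0.416 (SE) in the double knockdown tumors, or 59.1-fold (adjusted p = 0.000305, edgeR), and 6.56 ± 0.376 in the pros RNAi tumors, or 94.5-fold (adjusted p = 2.84e-05, edgeR). In the pros RNAi tumors its log2 fold change ranked at place 59 of 14162 from the highest, and in the double knockdown tumors at place 94 of 14289. The gene (FBgn0003124) lies at 3L:20309654-20313466 on the plus strand of Release 6, and no exon of another gene overlaps it.

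The size of the polo change against wild type rested on which wild-type library was used. Without wild-type replicate 1 it was 6.54 in the double knockdown tumors and 7.17 in the pros RNAi tumors, and without replicate 2 it was 5.47 in the double knockdown tumors and 6.12 in the pros RNAi tumors. Wild-type replicate 1 also held more RNA of the germline genes vas (4.42 CPM, against 2.02 CPM in replicate 2), nos (8.52 and 3.77 CPM) and osk (8.63 and 4.26 CPM). For the other germline markers the ratio of wild-type replicate 1 to replicate 2 was smaller, at 1.51 for aub, 1.39 for bam and 1.14 for piwi. For bgcn it was 0.641. In the 4 tumor libraries vas and osk reached at most 0.310 CPM, while nos was at 1.95 to 2.62 CPM. All 7 germline markers together were at 47.6 to 72.6 CPM in the tumors, against 38.3 and 23.8 CPM in wild type, and in the tumors bam and bgcn made up the larger part. The ratio of replicate 1 to replicate 2 in wild type was 2.10 for polo, 1.77 for pav, 1.45 for Klp61F and 1.25 for aurB, and between 0.888 and 1.11 for the other 6 genes. Whether germline RNA had a part in the wild-type level of these genes was not tested.

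The Aurora kinases differed in how far they stood above wild type. The level of aurB was 37.9 and 38.8 CPM in the double knockdown tumors and 42.6 and 37.1 CPM in the pros RNAi tumors, against 1.30 and 1.05 CPM in wild-type VNCs. That of aurA was 22.1 and 23.5 CPM in the double knockdown tumors and 27.4 and 28.4 CPM in the pros RNAi tumors, against 8.93 and 8.57 CPM in wild type. Thus aurB was 32.4-fold above wild type in the double knockdown tumors and 33.9-fold in the pros RNAi tumors (adjusted p = 5.7e-05 and 5.91e-06, edgeR), while aurA was 2.61-fold above it in the double knockdown tumors and 3.22-fold in the pros RNAi tumors (adjusted p = 0.00014 and 9.61e-06, edgeR). aurA (FBgn0000147, 3R:11963124-11964826, plus strand) shares 9.7% of its exon bases with CG12213 on the other strand, and the reads were counted without strand. If reads of CG12213 were spread evenly over its exons, 30.1% and 29.8% of the aurA counts in wild type would be its reads, against 6.39% to 7.32% in the tumors. aurB (FBgn0024227, 2L:10856797-10858094, minus strand) has no such overlap.

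The checkpoint genes differed widely in their distance from wild type. BubR1, part of the complex that inhibits the anaphase promoting complex, was at 111 and 117 CPM in the double knockdown tumors and at 120.1 and 112 CPM in the pros RNAi tumors, against 6.22 and 5.73 CPM in wild type. Bub3, which brings BubR1 and Bub1 to the kinetochore, was at 74.2 and 76.1 CPM in the double knockdown tumors and at 74.9 and 68.5 CPM in the pros RNAi tumors, against 12.0 and 11.3 CPM in wild type. The tumor values of both genes overlapped between the tumor conditions, and all lay above wild type. BubR1 was 19.1-fold above wild type in the double knockdown tumors and 19.6-fold in the pros RNAi tumors, and Bub3 was 6.46-fold above it in the double knockdown tumors and 6.22-fold in the pros RNAi tumors, with adjusted p-values of at most 5.7e-05 by edgeR.

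The checkpoint kinases Mps1, which starts the signal, and Bub1, which acts at the kinetochore, stood closer to wild type. Mps1 was at 24.6 and 25.1 CPM in the double knockdown tumors and at 28.0 and 29.6 CPM in the pros RNAi tumors, against 6.58 and 6.03 CPM in wild type. Bub1 was at 43.3 and 42.2 CPM in the double knockdown tumors and at 55.5 and 52.1 CPM in the pros RNAi tumors, against 22.0 and 20.0 CPM in wild type. Bub1 had the smallest difference from wild type of the 10 genes, at 2.04-fold in the double knockdown tumors and 2.59-fold in the pros RNAi tumors (adjusted p = 0.000333 and 2.97e-05, edgeR). Mps1 was 3.95-fold above wild type in the double knockdown tumors and 4.61-fold in the pros RNAi tumors (adjusted p = 8.13e-05 and 7.79e-06, edgeR). It shares 4.53% of its exon bases with alt on the other strand, which under an even spread would give 27.6% and 29.3% of its wild-type counts. The corresponding share for Bub3, which overlaps ppk19, was at most 2.65% in any library.

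These genes lie apart in the genome. BubR1 (FBgn0263855) is at 2R:5969099-5974385 on the minus strand, Bub1 (FBgn0031696) at 2L:5278865-5283283 on the plus strand, Bub3 (FBgn0025457) at 3R:29674007-29675421 on the minus strand and Mps1 (FBgn0000063) at 3R:17671271-17673828 on the plus strand. Neither BubR1 nor Bub1 has exon bases in common with another gene.

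The centromere gene cid was the lowest of the 10 in CPM in the tumors. It was at 11.002 and 10.650 CPM in the double knockdown tumors and at 10.86 and 10.89 CPM in the pros RNAi tumors, against 2.13 and 2.40 CPM in wild type. The tumor values overlapped, and they were 4.76-fold above wild type in the double knockdown tumors and 4.82-fold in the pros RNAi tumors (adjusted p = 0.000166 and 2.54e-05, edgeR). cid (FBgn0040477) is at 2R:13485617-13486631 on the plus strand, with no exon overlap.

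The motors Klp61F and pav had, with polo, the largest differences from wild type. Klp61F was at 101 and 108 CPM in the double knockdown tumors and at 138 and 126 CPM in the pros RNAi tumors, against 2.10 and 1.45 CPM in wild type. pav was at 138 and 143 CPM in the double knockdown tumors and at 176 and 181 CPM in the pros RNAi tumors, against 2.85 and 1.61 CPM in wild type. For both motors the 3 conditions did not overlap. Klp61F was 58.8-fold above wild type in the double knockdown tumors and 74.9-fold in the pros RNAi tumors (adjusted p = 6.91e-05 and 6.79e-06, edgeR), and pav was 63.2-fold above it in the double knockdown tumors and 81.0-fold in the pros RNAi tumors (adjusted p = 0.00014 and 1.29e-05, edgeR). As with polo, the value for pav moved with the wild-type library, between 5.65 and 6.47 on the log2 scale in the double knockdown tumors when either was left out and between 5.98 and 6.79 in the pros RNAi tumors. Klp61F (FBgn0004378, 3L:1241568-1245910, minus strand) shares 11% of its exon bases with CG9194, which under an even spread would give at most 2.46% of its counts in any library. pav (FBgn0011692, 3L:4242734-4246233, plus strand) has no exon overlap.

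**Figure D2:**
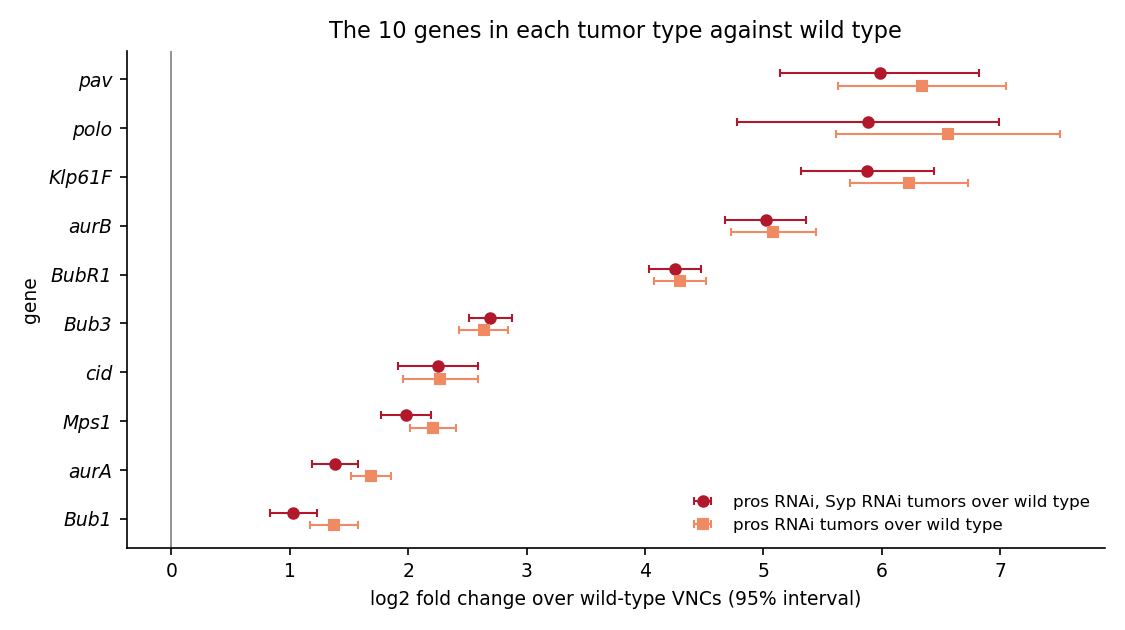
Log2 fold change of the 10 genes over wild-type VNCs (horizontal axis) by gene (vertical axis), with circles for double knockdown tumors and squares for pros RNAi tumors, and bars for the 95% interval of edgeR's fit. The genes run from pav, polo and Klp61F, near 6, down to aurA and Bub1, at 1.38 and 1.03 in the double knockdown tumors, and no interval reaches 0.

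Levels were also compared between genes, per kb of exon. In the double knockdown tumors polo led with 66.1 ± 5.61 CPM per kb (SD, n = 2), followed by Bub3 (55.2 ± 0.962), pav (43.9 ± 1.09), aurB (32.5 ± 0.539), Klp61F (27.0 ± 1.11), BubR1 (24.6 ± 0.864), aurA (14.5 ± 0.665), Mps1 (11.6 ± 0.186), cid (10.7 ± 0.245) and Bub1 (9.98 ± 0.181). Each neighbour in this order differed from the next by more than the sum of their SDs. In the pros RNAi tumors the order of CPM per kb was polo (104 ± 2.17), pav (55.7 ± 1.04), Bub3 (52.7 ± 3.32), Klp61F (34.1 ± 2.19), aurB (33.7 ± 3.32), BubR1 (25.1 ± 1.20), aurA (17.7 ± 0.475), Mps1 (13.5 ± 0.508), Bub1 (12.6 ± 0.558) and cid (10.7 ± 0.0191). There pav and Bub3, Klp61F and aurB, and Mps1 and Bub1 did not differ beyond that spread.

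In wild-type VNCs the order was another one. Bub3 led with 8.56 ± 0.370 CPM per kb (SD, n = 2), before aurA (5.55 ± 0.158), Bub1 (4.91 ± 0.346), Mps1 (2.95 ± 0.183) and cid (2.23 ± 0.186). At the low end stood BubR1 (1.29 ± 0.0738 CPM per kb), polo (1.12 ± 0.562), aurB (0.993 ± 0.154), pav (0.695 ± 0.274) and Klp61F (0.458 ± 0.119), of which no neighbours differed beyond the sum of their SDs. The wild-type levels of aurA and Mps1 include the possible share of their overlapping partners given above.

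The make-up of the set therefore changed between conditions, a measure that does not depend on how libraries are scaled to each other. Of the summed CPM per kb of the 10 genes, polo made up 23.6% and 21.0% in the double knockdown tumors and 28.8% and 29.2% in the pros RNAi tumors, against 5.02% and 2.64% in wild type. Bub3 made up 18.4% and 18.9% in the double knockdown tumors and 15.0% and 14.3% in the pros RNAi tumors, against 29.2% and 30.4% in wild type. The share of aurA was 4.72% and 5.05% in the double knockdown tumors and 4.72% and 5.11% in the pros RNAi tumors, against 18.7% and 19.9% in wild type. For polo and Bub3 the tumor conditions did not overlap in this share, while for aurA they did.

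**Figure D3:**
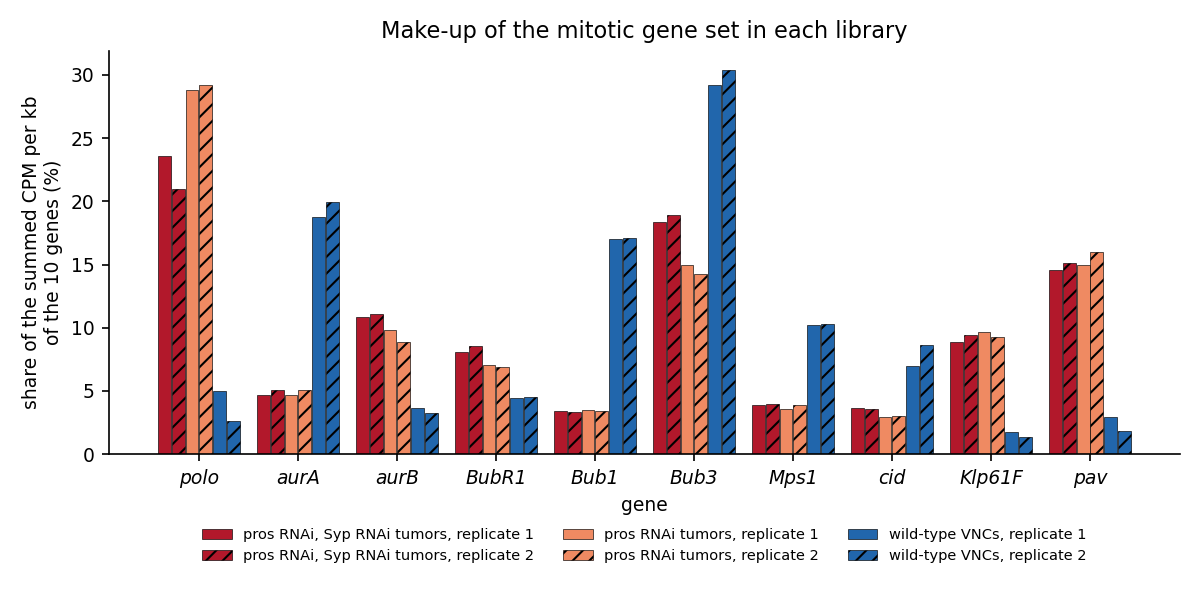
Share of each gene in the summed CPM per kb of the 10 genes, in percent (vertical axis), by gene (horizontal axis), with 1 bar per library and double knockdown tumors, pros RNAi tumors and wild-type VNCs from left to right. Replicate 2 is hatched. The tumors are led by polo, at 21.0% to 29.2%, and wild type by Bub3, at 29.2% and 30.4%.

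The second comparison asks how these genes differ when Syp is knocked down in tumors that carry pros RNAi in both conditions. The RNA of pros was not equal in them. It was higher in the double knockdown tumors (log2 fold change 0.58, SE 0.112, adjusted p = 0.0274, edgeR), and its part in the differences below was not tested. By edgeR's quasi-likelihood test, 5 of the 10 genes fell in the double knockdown tumors at an adjusted p under 0.05 and 0 rose, where 12.4% of the 13703 genes tested were lower and 10.9% higher. Both double knockdown libraries lay below both pros RNAi libraries for 6 of 10 genes, beside 33.7% of all genes. The median log2 fold change of the 10 genes was -0.25, with a range from -0.66 to 0.07, and that of all genes tested was 0.02. DESeq2's Wald test also called 5 of the 10, beside 2083 lower and 1994 higher of all 13703 genes. By edgeR 6 of the 10 had an unadjusted p under 0.05. The smallest adjusted p of any gene tested was 0.00197.

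Of the 10 genes, polo had the largest difference between the tumors. Its level averaged 197 ± 16.7 CPM in the double knockdown tumors and 311 ± 6.46 CPM in the pros RNAi tumors (SD, n = 2 each), a decrease of 36.7% (log2 fold change -0.66, SE 0.0917, adjusted p = 0.0142, edgeR). It was lower in both double knockdown libraries. The log2 fold change lay between -0.77 and -0.46 in all 14 alternative ways of processing, and polo was called in 10 of them. The exceptions were all 6 libraries in one fit (adjusted p = 0.143), the threshold of 0.001, and the fits without pros RNAi replicate 1 (adjusted p = 0.0987) or replicate 2 (adjusted p = 0.0935), all by edgeR.

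The same direction was found for both motors. Klp61F averaged 105 ± 4.31 CPM in the double knockdown tumors and 132 ± 8.47 CPM in the pros RNAi tumors, and pav averaged 141 ± 3.51 CPM in the double knockdown tumors and 179 ± 3.35 CPM in the pros RNAi tumors (SD, n = 2 each). The log2 fold changes were -0.34 for each, with SE 0.0772 and adjusted p = 0.0387 for Klp61F and SE 0.0599 and adjusted p = 0.0219 for pav by edgeR. Of the kinases, aurA averaged 22.8 ± 1.05 CPM in the double knockdown tumors and 27.9 ± 0.749 CPM in the pros RNAi tumors, and Bub1 averaged 42.7 ± 0.774 CPM in the double knockdown tumors and 53.8 ± 2.39 CPM in the pros RNAi tumors. They fell by 0.29 (aurA, adjusted p = 0.0367) and by 0.33 (Bub1, adjusted p = 0.0324) on the log2 scale by edgeR.

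The other 5 genes did not pass the test. Mps1 averaged 24.9 ± 0.399 CPM in the double knockdown tumors and 28.8 ± 1.09 CPM in the pros RNAi tumors (SD, n = 2 each), with a log2 fold change of -0.21, a 95% interval from -0.38 to -0.05 and an adjusted p of 0.0713 by edgeR. The difference was -0.06 for aurB (interval -0.29 to 0.18), -0.03 for BubR1 (-0.21 to 0.15), -0.01 for cid (-0.26 to 0.24) and 0.07 for Bub3 (-0.13 to 0.26). These 4 intervals include 0, which does not show that the genes were at equal levels.

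These calls depended on the scaling and on single libraries. With library totals alone, with dpn and grh as scaling genes, or with 6 NB markers as scaling genes (chosen after the data were seen), polo was the 1 gene of 10 that was called. These scalings moved the median log2 fold change of all genes between the tumors to 0.15, 0.20 and 0.21, and that of the 10 genes to -0.12, -0.07 and -0.06. They also moved the share of lower genes among all genes called, which was 53.3% with TMM, to 28.2%, 23.3% and 20.7%. The estimates of aurB, BubR1 and cid were above 0 under these scalings. The NB scalings have limits of their own. Of the exon bases of dpn, 59.3% overlap exons of other genes, and the reads were counted without strand. Of the 6 NB markers, mira (-0.98) and insc (-0.42) were themselves lower between the tumors with TMM, and ase (0.34) was higher. When either pros RNAi library was left out 0 of 10 genes were called, without double knockdown replicate 2 polo alone, and without double knockdown replicate 1 polo and pav. The whole table lost its calls in the same way: 235 of 14214 genes were called without pros RNAi replicate 1 and 6 of 14265 without pros RNAi replicate 2, beside 2836 of 14004 without double knockdown replicate 1 and 2108 of 14166 without double knockdown replicate 2. The log2 fold changes stayed close to those of all 4 libraries. Without pros RNAi replicate 1 they were -0.63 for polo, -0.36 for pav, -0.27 for Klp61F, -0.28 for Bub1 and -0.31 for aurA, and without pros RNAi replicate 2 they were -0.68 for polo, -0.33 for pav, -0.40 for Klp61F, -0.38 for Bub1 and -0.27 for aurA.

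**Figure D4:**
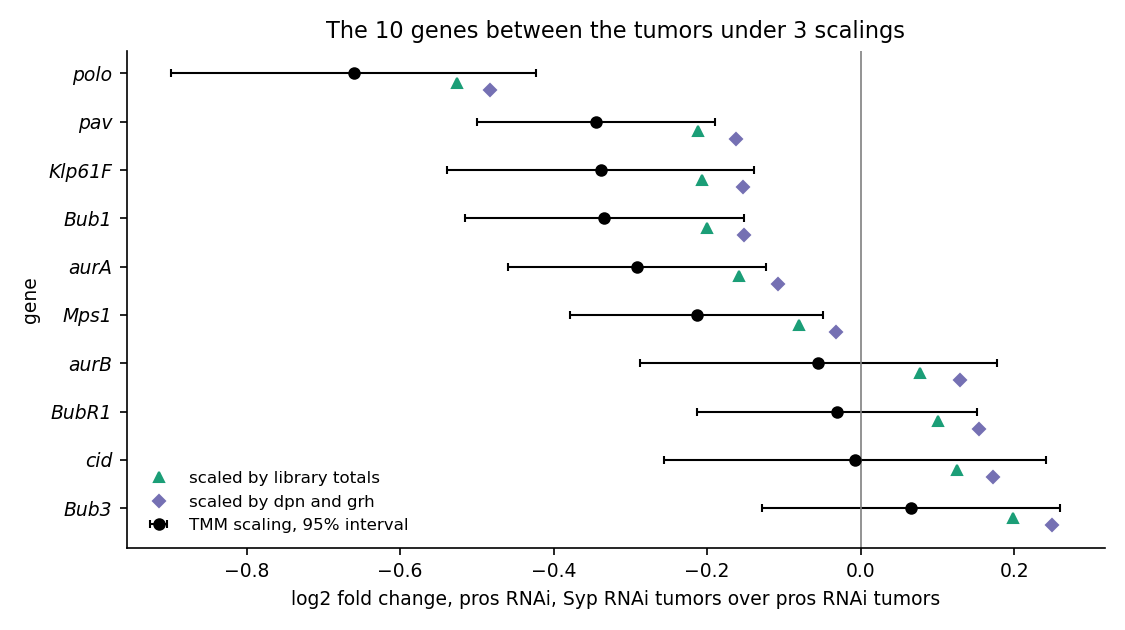
Log2 fold change of double knockdown tumors over pros RNAi tumors (horizontal axis) for the 10 genes (vertical axis). Circles with bars are the TMM-scaled estimate and its 95% interval, triangles the estimate scaled by library totals and diamonds that scaled by dpn and grh. The estimate for polo stays left of 0 under all 3 scalings, while those of aurB, BubR1 and cid lie on either side of it.

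Relative to the other 9 genes in the same library, which takes scaling out, polo stood at 2.15 and 1.94 on the log2 scale in the double knockdown tumors, against 2.53 and 2.54 in the pros RNAi tumors. Bub3 stood at 0.49 and 0.52 in the double knockdown tumors, against 0.23 and 0.14 in the pros RNAi tumors. cid stood at -2.57 and -2.64 in the double knockdown tumors, against -2.87 and -2.81 in the pros RNAi tumors. Of the 10 genes, 8 did not overlap between the tumor conditions in this measure: aurB, BubR1, Bub3 and cid stood higher in the double knockdown tumors and polo, Bub1, Klp61F and pav lower, while aurA and Mps1 overlapped. Because each gene is set against the other 9, a fall of some genes raises the relative level of the rest. The higher standing of aurB, BubR1, Bub3 and cid is therefore not a separate result. How often genes outside the set would separate in such a measure was not counted, so the count of 8 is not read as a result about these genes. No test was made of these relative levels.

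Other cell types also differed between the tumor libraries. The 6 NB markers summed to 1892 and 1781 CPM in the double knockdown tumors, against 2401 and 2270 CPM in the pros RNAi tumors. By edgeR's test 2 of the 6 were lower (mira and insc) and 1 higher (ase). Of the 6, mira had the largest difference, at 481 and 491 CPM in the double knockdown tumors, against 979 and 935 CPM in the pros RNAi tumors. The other direction was seen for ase (144 and 142 CPM, against 116 and 111 CPM) and wor (375 and 329 CPM, against 317 and 281 CPM). The 12 muscle markers summed to 1071 and 1820 CPM in the double knockdown tumors, against 224 and 222 CPM in the pros RNAi tumors, and 10 of them were higher. The 7 neuron markers summed to 1179 and 1686 CPM in the double knockdown tumors, against 738 and 876 CPM in the pros RNAi tumors, and 4 were higher. The 6 glia markers (827 and 1021 CPM in the double knockdown tumors, against 604 and 633 CPM in the pros RNAi tumors) had 3 higher and 1 lower, and the 6 fat body markers (122 and 76.1 CPM in the double knockdown tumors, against 1127 and 581 CPM in the pros RNAi tumors) had 2 higher and 4 lower. Of the 7 germline markers 2 were higher. The part of these shifts in the differences of the 10 genes was not tested.

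The wider mitotic machinery was read from 6 lists with 128 genes, 125 of which were in the table. The lists were written from general knowledge and do not include the 10 genes. Against wild type, 108 of the 124 list genes tested were higher and 8 lower in the double knockdown tumors. In the pros RNAi tumors 111 of the 123 tested were higher and 7 lower. Of all genes tested, 39.8% were higher and 36.7% lower in the double knockdown tumors. In the pros RNAi tumors 41.9% of all genes were higher and 40.7% lower. The list genes had median log2 fold changes of 2.04 in the double knockdown tumors and 2.09 in the pros RNAi tumors, below the 3.47 of the 10 genes. Between the tumors, 45 of 124 list genes were lower in the double knockdown tumors, 4 were higher and 75 were not called. The median was -0.15. Of all 13703 genes tested, 12.4% were lower and 10.9% higher. The shares over all genes given here also stand beside the counts of each list below. With dpn and grh as scaling genes 7 list genes were lower and 4 higher (median 0.03), beside 555 lower and 1827 higher of all genes. With library totals 23 list genes were lower and 10 higher (median -0.02), beside 956 lower and 2435 higher of all genes. With the 6 NB markers as scaling genes 13 list genes were lower and 10 higher (median 0.04), beside 584 and 2240 of all genes. The median of all genes was 0.20 with dpn and grh, 0.15 with library totals and 0.21 with the 6 NB markers. These medians of all genes also stand beside the list medians under the same scalings below. Without pros RNAi replicate 1 only 2 of 125 were lower, and without pros RNAi replicate 2 none of them, with medians of -0.11 and -0.16 and 0 higher in both. Without double knockdown replicate 1 the lower genes were 38 of 123 and without double knockdown replicate 2 they were 26 of 124.

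Of 18 kinetochore and checkpoint genes outside the set, 10 were lower in the double knockdown tumors than in the pros RNAi tumors and 0 higher, with a median log2 fold change of -0.29. The median was also below 0 with library totals (-0.16, 4 lower), with dpn and grh (-0.11, 2 lower) and with 6 NB markers (-0.10, 3 lower) as the scaling. Without pros RNAi replicate 1 the lower genes numbered 1 and without pros RNAi replicate 2 they numbered 0. Spc105R, the kinetochore scaffold on which Bub1 and BubR1 assemble, was at 157 and 157 CPM in the double knockdown tumors, against 286 and 286 CPM in the pros RNAi tumors (log2 fold change -0.86, adjusted p = 0.00469, edgeR). cana, a CENP-E-like kinesin, fell by 0.67 on the log2 scale (adjusted p = 0.0148, edgeR). Against wild type 17 of 18 were higher in each tumor, and cmet, a second CENP-E-like kinesin, and Spindly, which recruits dynein to kinetochores, had the largest changes (6.17 and 5.89 in the double knockdown tumors, 6.65 and 6.15 in the pros RNAi tumors). Mis12 was the 1 gene lower than wild type, in the double knockdown tumors, with a log2 fold change of -0.36.

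Of the 18 genes of the chromosomal passenger complex and cytokinesis, 6 were lower in the double knockdown tumors and 0 higher (median log2 fold change -0.12). With library totals 5 were lower and 4 higher (median 0.02), with dpn and grh 1 was lower and 0 higher (median 0.07), and 0 were called when either pros RNAi library was left out. The lowest were scra, which encodes anillin (-0.67, adjusted p = 0.00698), and feo, a microtubule bundler of the central spindle (-0.52, adjusted p = 0.0122, edgeR). tum, whose protein forms a complex with Pav, was at 176 and 165 CPM in the double knockdown tumors, against 187 and 171 CPM in the pros RNAi tumors, and did not pass the test (-0.07, adjusted p = 0.578, edgeR). Against wild type tum and sub, a kinesin-6 like pav, had the highest fold changes of this list (6.48 and 6.20 in the double knockdown tumors, 6.56 and 6.54 in the pros RNAi tumors), and the septin Sep4 was lower (-0.77 in the double knockdown tumors and -0.98 in the pros RNAi tumors). Of the exon bases of sub, 20.6% overlap exons of other genes, whose reads may be part of its counts. The list had 17 genes higher than wild type in each tumor.

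Of 25 further kinesin and spindle genes, 10 were lower in the double knockdown tumors and 1 higher (median log2 fold change -0.19). The lower genes numbered 4 with library totals (median -0.06), 2 with dpn and grh (median -0.02), 1 without pros RNAi replicate 1 and 0 without pros RNAi replicate 2. Klp3A, a kinesin-4 of the central spindle, was at 96.3 and 99.7 CPM in the double knockdown tumors, against 188 and 185 CPM in the pros RNAi tumors (log2 fold change -0.93, adjusted p = 0.00416, edgeR), and asp, which focuses spindle poles, fell by 0.73 (adjusted p = 0.00631, edgeR). Against wild type 22 of 25 were higher in the double knockdown tumors and 21 of 24 in the pros RNAi tumors, led by mud, which links spindle and cortex (6.08 in the double knockdown tumors and 6.47 in the pros RNAi tumors). msd1, an augmin subunit, was at 5.35 in the double knockdown tumors and asp at 6.03 in the pros RNAi tumors. Klp31E was lower than wild type in both (-0.88 in the double knockdown tumors and -0.42 in the pros RNAi tumors).

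Among 18 centrosome and centriole genes, 5 were lower in the double knockdown tumors and 1 higher (median log2 fold change -0.11). Library totals gave 2 lower and 3 higher (median 0.02), dpn and grh gave 1 lower and 1 higher (median 0.07), and 0 were called when either pros RNAi library was left out. The lowest were cnn (-0.66, adjusted p = 0.00785) and Plp (-0.46, adjusted p = 0.0134, edgeR), both scaffolds of the material around the centriole. cnn was also lower than wild type (-0.91 in the double knockdown tumors and -0.24 in the pros RNAi tumors), while asl, a centriole protein, and bora, an activator of Aurora A, were highest (4.27 and 4.25 in the double knockdown tumors, 4.51 and 4.61 in the pros RNAi tumors). Of these 18 genes 15 were higher than wild type in each tumor. The higher gene between the tumors was gammaTub37C, and in the kinesin list Klp59C. Both were named after their values were seen, and they were at 1.47 and 1.89 CPM (gammaTub37C) and 0.0980 and 0.127 CPM (Klp59C) in the double knockdown tumors, against at most 0.129 CPM in the pros RNAi tumors. gammaTub37C was also lower in the pros RNAi tumors, at 0.0107 and 0.129 CPM, against 1.09 and 0.447 CPM in wild type (adjusted p = 0.0136, edgeR).

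Of 27 genes of the anaphase promoting complex, cohesin and condensin, which the checkpoint restrains or which hold and compact chromosomes, 10 were lower in the double knockdown tumors and 0 higher (median log2 fold change -0.10). The median was above 0 with library totals (0.04, 5 lower) and with dpn and grh (0.09, 1 lower), and 0 were called when either pros RNAi library was left out. Under these 2 scalings the median of all genes was also above 0, at 0.15 and 0.20. The condensin subunits Cap-D3 (-0.66, adjusted p = 0.00767) and Cap-D2 (-0.59, adjusted p = 0.00962, edgeR) were the lowest. Of the exon bases of Cap-D3, 20.3% overlap exons of other genes, whose reads may be part of its counts. Against wild type 24 of 27 were higher in the double knockdown tumors, with Cap-D2 at 5.13 and the separase subunit thr at 4.73, and 27 of 27 in the pros RNAi tumors, with Cap-D2 at 5.74 and the securin pim at 4.97.

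Of 18 kinases and phosphatases of mitotic entry and exit, 4 were lower in the double knockdown tumors and 2 higher (median log2 fold change -0.05). The count was 3 lower and 2 higher with library totals (median 0.08), 0 lower and 2 higher with dpn and grh (median 0.13), and 0 in each direction when either pros RNAi library was left out. gwl, the Greatwall kinase that phosphorylates Endosulfine, was lower (-0.50, adjusted p = 0.0116), and so was Wee1, which inhibits Cdk1 (-0.50, adjusted p = 0.0121), while endos (0.41, adjusted p = 0.016) and grp, the checkpoint kinase Chk1 (0.31, adjusted p = 0.0348, edgeR), were higher. Against wild type 13 of 18 were higher and 3 lower in the double knockdown tumors, and 14 higher and 3 lower in the pros RNAi tumors. Cks30A, a subunit of Cdk1 complexes, was highest (7.70 in the double knockdown tumors and 7.97 in the pros RNAi tumors), followed by ball, a histone kinase (4.51), in the double knockdown tumors and gwl (4.59) in the pros RNAi tumors. The lowest in the double knockdown tumors were mtrm, an inhibitor of Polo in the female germline (-1.64), and Cks85A (-1.13). In the pros RNAi tumors they were also mtrm (-1.49) and Cks85A (-0.73). Of the exon bases of Cks85A, 74.9% overlap exons of other genes, and the reads were counted without strand. Its counts may therefore be largely reads of those genes, which was not tested. The overlap was 12.6% for Wee1, 12.2% for grp and 11.5% for endos.

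**Figure D5:**
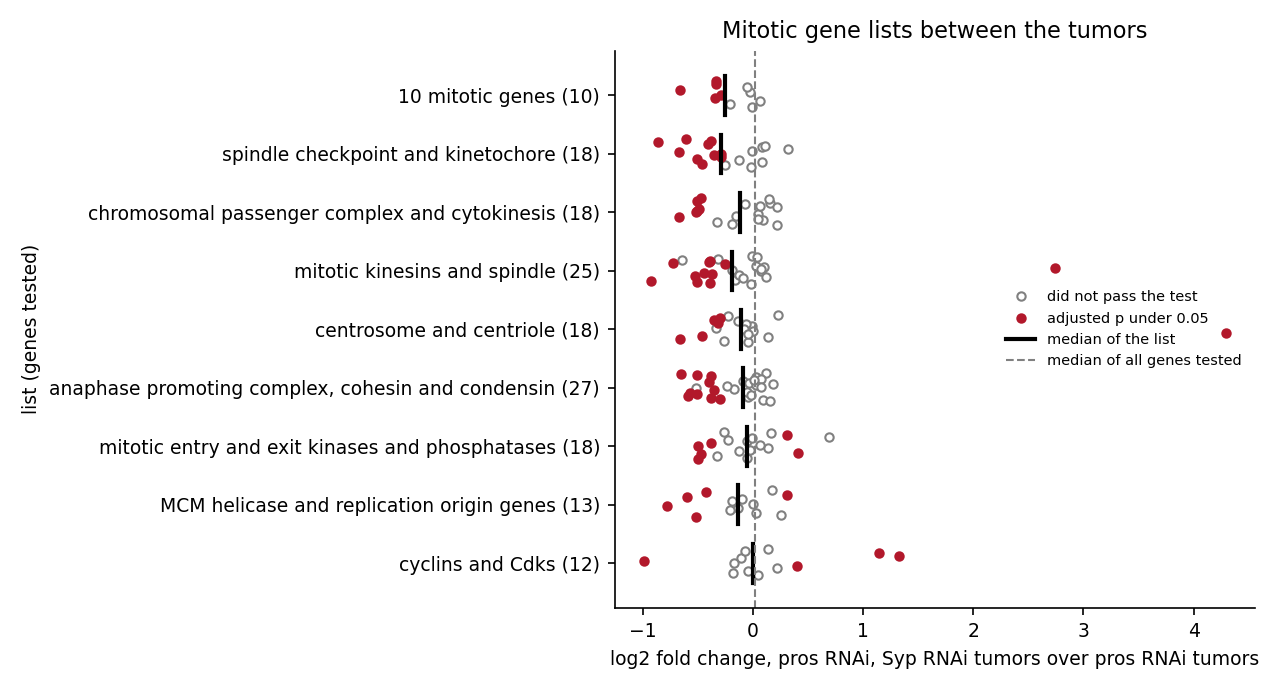
Log2 fold change of double knockdown tumors over pros RNAi tumors (horizontal axis) for the genes of each list (vertical axis, number of genes tested in parentheses). Filled points passed edgeR's test at an adjusted p under 0.05, open points did not, black bars are list medians and the dashed line is the median of all genes tested. Medians run from -0.29 for kinetochore and checkpoint genes to about 0 for cyclins and Cdks.

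Of 13 MCM helicase and replication origin genes, 4 were lower and 1 higher in the double knockdown tumors (median log2 fold change -0.14, but 0.04 with 2 lower and 1 higher with dpn and grh as scaling genes, and 0 called when either pros RNAi library was left out), with Mcm2 (-0.79) and Orc1 (-0.60) lowest and Mcm6 (0.31) higher. All 13 were above wild type in each tumor, with medians of 3.89 in the double knockdown tumors and 4.07 in the pros RNAi tumors, led by Mcm7 (5.69) and Mcm2 (5.34) in the double knockdown tumors and by Mcm2 (6.14) and Mcm7 (5.92) in the pros RNAi tumors. Of 12 cyclins, Cdks and their regulators, 1 was lower between the tumors and 3 higher (median -0.0025), and 0 were called when either pros RNAi library was left out. stg, the phosphatase that activates Cdk1, was at 31.3 and 26.7 CPM in the double knockdown tumors, against 59.2 and 56.5 CPM in the pros RNAi tumors (-0.99, adjusted p = 0.00943, edgeR). dap, a Cdk inhibitor, was at 51.7 and 46.1 CPM in the double knockdown tumors, against 20.1 and 19.0 CPM in the pros RNAi tumors (1.32, adjusted p = 0.00478, edgeR), and Cdk4 was also higher (1.14, adjusted p = 0.0147, edgeR). Against wild type 11 of the 12 were higher in the double knockdown tumors and 10 in the pros RNAi tumors, with Cdk1 (5.64) and CycE (4.61) highest and fzr lower (-0.49) in the double knockdown tumors, and the same genes highest (5.52 and 4.70) and lower (-0.30) in the pros RNAi tumors.

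The folds over wild type of several genes in these lists also moved with the wild-type library used. Of the 23 list genes named for their difference from wild type in the double knockdown tumors, 7 moved by more than 1.5 times when 1 wild-type library was left out, and of the 22 named for the pros RNAi tumors, 10 did. When a library was left out, the log2 fold change of Cdk1 lay between 5.13 and 6.47 in the double knockdown tumors and between 4.99 and 6.30 in the pros RNAi tumors, and that of Mcm7 between 5.18 and 6.54 and between 5.39 and 6.73. For sub the ranges were 5.70 to 6.99 in the double knockdown tumors and 6.02 to 7.28 in the pros RNAi tumors, for bora 3.76 to 5.06 and 4.09 to 5.37, for mud 5.67 to 6.73 and 6.04 to 7.08, and for cmet 5.75 to 6.82 and 6.21 to 7.26. In the pros RNAi tumors alone asp (5.56 to 6.71), gwl (4.14 to 5.21) and pim (4.53 to 5.57) moved as far. The decrease of mtrm lay between -2.04 and -1.01 in the double knockdown tumors and between -1.91 and -0.90 in the pros RNAi tumors, and it did not pass the test in either comparison without wild-type replicate 1, nor without double knockdown replicate 2 or pros RNAi replicate 1. When either wild-type library was left out, Mis12 in the double knockdown tumors and cnn and fzr in the pros RNAi tumors did not pass it.

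Individual genes of the set differed in how far their profiles lay from the mean of the set. The measure counts the size of a change as well as its shape. A gene with a much larger or smaller fold over wild type than the mean therefore lies far away. The root mean square difference on the log2 scale between a gene's centred profile over the 6 libraries and the mean profile of the 10 was 0.291 for BubR1, 0.474 for Bub3 and 0.476 for aurB, and 1.22 for polo, 1.13 for Bub1 and 1.11 for pav at the other end. Among 11075 other genes with a mean CPM of at least 1, the 5 nearest to that mean profile were dgt3 (0.0553), dpa (0.0560), Nop60B (0.0610), jumu (0.0800) and rod (0.0825). The nearest, dgt3, averaged 22.0 ± 0.456 CPM in the double knockdown tumors, 27.4 ± 2.05 CPM in the pros RNAi tumors and 1.65 ± 0.196 CPM in wild type (SD, n = 2 each). Next came dpa, with means of 110.2 CPM in the double knockdown tumors, 126 CPM in the pros RNAi tumors and 8.77 CPM in wild type.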

How the data were processed

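Total RNA of 6 pools of VNCs was depleted of ribosomal RNA and sequenced (1 label field says polyA RNA). Per the file headers, the authors' deposited counts come from featureCounts 1.5.0 on exons of FlyBase 6.19, without strand, with reads on several genes counted for each. Reads had been mapped with Subread to dmel6, while the labels name dm3. All 10 genes had the same span in a Release 6 annotation.

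The genes, lists and tests were chosen with earlier results of these data known. R 4.3.3, edgeR 4.0.16, DESeq2 1.42.0 and matplotlib 3.10.9 were used. Each comparison used its 4 libraries, scaled by TMM and filtered by filterByExpr (minimum count 10), which all 10 genes passed with at least 10 counts in both wild-type libraries. edgeR's quasi-likelihood test (prior count 2), tested on simulated data, was adjusted over all genes tested by the method of Benjamini and Hochberg, and a gene was called at an adjusted p under 0.05. Alternatives were a threshold of 0.001, DESeq2's size factors and Wald test, library totals, dpn and grh or 6 NB markers as scaling genes, other filters, all libraries in one fit, a replicate block and leaving out each library. For profiles, 0.5 was added to CPM before the log2.

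Named were the 10 genes, pros, Syp, dpn, grh, the 5 genes nearest in profile and, of each list and comparison, the 2 highest and 2 lowest genes called with a mean CPM of at least 1 and no overlap between conditions. The symbols Spd-2, lmg, tlk and Cdc45 matched no row. Promoter and protein sequences were not analysed here.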

Additional observations from a re-analysis of the deposited data

How the results depend on the processing

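Against wild type, 10 of the 10 genes were called higher under all 12 alternatives of each comparison, with the same direction for each gene. At 0.05 with no library left out, these alternatives called 4843 to 5926 of all genes higher in the pros RNAi tumors. In the double knockdown tumors they called 5012 to 5853 of all genes higher. Between the tumors, 5 genes were called lower with DESeq2's size factors, its Wald test and both other filters. Of all genes, 1718 and 2083 of 13703 were lower with the size factors and the Wald test. With the other filters 1685 of 16963 and 1684 of 12629 were lower. The count was 1 with library totals, 1 with dpn and grh as scaling genes, 1 with 6 NB markers as scaling genes (chosen after the data were seen), 2 with all 6 libraries in one fit (aurA and Bub1), and 0 at an adjusted p under 0.001. Leaving out 1 library in turn gave 0 to 2, and 0 without either pros RNAi library, where 235 and 6 genes of the whole table were called and the estimates of the 5 genes stayed between -0.68 and -0.27. Estimates that did not pass the test changed sign: with library totals aurB was 0.077, BubR1 0.10 and cid 0.13, with dpn and grh 0.13, 0.15 and 0.17, and with the 6 NB markers 0.15, 0.17 and 0.19. With 10 counts required in every library cid was 0.00079. Leaving out 1 library moved aurB between -0.15 and 0.055, BubR1 between -0.080 and 0.024 and cid between -0.052 and 0.030. Why the calls changed was not tested. Library totals moved the median of all genes to -0.27 in the pros RNAi tumors against wild type and to -0.09 in the double knockdown tumors.

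The replicate numbers of the labels mark no stated pairing. With them as a replicate block, 5 genes were called lower between the tumors and 10 higher against wild type in each comparison. Of all genes, 1725 of 13703 were lower between the tumors with this block. Against wild type 5748 of 14162 were higher in the pros RNAi tumors and 5413 of 14289 in the double knockdown tumors. The deviations of same-numbered libraries from their means had a correlation across 11085 genes of 0.39 between the tumors, -0.27 for pros RNAi tumors and wild type and -0.06 for double knockdown tumors and wild type. Among the other genes named, the number of estimates in an alternative that changed sign was 0, while 81 between the tumors no longer passed the threshold and 227 did. The lowest count of the 10 genes was 138, and for genes at low counts counting error can be as large as the spread between libraries. With 2 libraries a condition the spread is poorly known, and it may be technical.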
